A study of Mus musculus with 8 samples.

Results

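The 10 genes described here are the mouse VEGF ligands Vegfa, Vegfb, Vegfc, Vegfd and Pgf and the receptors and co-receptors Kdr, Flt1, Flt4, Nrp1 and Nrp2. They were taken by name from the gene columns of the deposited UMI count tables, where Vegfd is listed under its older symbol Figf. All 10 were found among the 26357 genes kept, 5 as ligands and 5 as receptors.

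The data are single-cell RNA sequencing libraries of stromal cells from the femur of female C57BL/6 mice, depleted of blood lineages with magnetic beads. Control bone came from 12-week-old mice without a fracture. Fracture bone was taken at post-fracture day 14 (PFD14) from mice whose left femur had been broken by three-point bending at 10 weeks of age, under ketamine and xylazine with carprofen, and held by an intramedullary nail. No transgene or deletion was involved, and no operated mouse without a fracture was described for Control, so that the break, the nail and the drugs cannot be told apart. The sample titles were read as 2 cell preparations in each group with 2 libraries each, which the labels do not spell out. The libraries of a preparation were summed, so every comparison was 2 preparations against 2. The labels do not say whether the preparations came from separate mice, so the p-values measure only the spread between these samples, which may be technical.

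The filtered data held 45328 cells. Control preparations 1 and 2 had 128757958 and 94606253 UMIs in 12755 and 7921 cells, and Fracture preparations 1 and 2 had 140502449 and 163318276 UMIs in 11867 and 12785 cells. The median cell held 7302 and 8278 UMIs in Control and 11011 and 11694 in Fracture. The Fracture preparations were nearly alike: the chi-square per gene between libraries of different Fracture preparations was 10.0 to 36.2, against 295 to 339 between Control preparations and 6.56 to 7.62 between libraries of 1 preparation. Libraries shared 10 to 23 cell barcodes in each pair.

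VEGF ligands are secreted growth factors of blood and lymphatic vessels. Vegfa signals mainly through Kdr (VEGFR2), while Flt1 (VEGFR1) binds Vegfa, Vegfb and Pgf and, as a soluble form, holds ligand back. Vegfc and Vegfd signal through Flt4 (VEGFR3), which marks lymphatic and sinusoidal endothelium, and the neuropilins Nrp1 and Nrp2 bind both VEGF ligands and class 3 semaphorins. In growing bone and in fracture callus, hypertrophic chondrocytes are a known source of Vegfa, and perivascular marrow stromal cells supply factors to sinusoidal vessels. The 3 prime UMI counts used here do not separate the soluble from the membrane form of Flt1, nor the splice forms of Vegfa, and levels are not scaled to gene length, so that levels of different genes are not compared.

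Vegfa and the 3 receptor tyrosine kinases lie on GRCm38 at 17:46016993-46032369 (Vegfa, minus strand), 5:75932827-75978458 (Kdr, minus strand), 5:147561604-147726011 (Flt1, minus strand) and 11:49609263-49652739 (Flt4, plus strand). Their promoters, from 250 bases before to 50 after the RefSeq start (GRCm38.p6), are shown because the receptors shared an endothelial pattern while Vegfa did not. Capitals mark the GC box, GGGCGG or its reverse complement CCGCCC.
Kdr, chr5:75978406-75978705, minus strand: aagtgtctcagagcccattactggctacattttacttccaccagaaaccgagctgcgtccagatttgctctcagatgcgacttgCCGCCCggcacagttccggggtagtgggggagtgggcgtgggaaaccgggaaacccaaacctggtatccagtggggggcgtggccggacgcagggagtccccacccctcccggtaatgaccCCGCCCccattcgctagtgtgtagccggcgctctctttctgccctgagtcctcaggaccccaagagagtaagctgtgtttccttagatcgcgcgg
Flt1, chr5:147725962-147726261, minus strand: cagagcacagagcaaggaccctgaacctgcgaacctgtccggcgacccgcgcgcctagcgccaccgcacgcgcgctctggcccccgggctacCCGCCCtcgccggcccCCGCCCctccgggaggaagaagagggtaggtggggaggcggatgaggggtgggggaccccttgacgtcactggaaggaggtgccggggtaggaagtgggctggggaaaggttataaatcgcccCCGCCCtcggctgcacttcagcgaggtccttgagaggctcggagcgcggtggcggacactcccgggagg
Flt4, chr11:49609429-49609728, plus strand: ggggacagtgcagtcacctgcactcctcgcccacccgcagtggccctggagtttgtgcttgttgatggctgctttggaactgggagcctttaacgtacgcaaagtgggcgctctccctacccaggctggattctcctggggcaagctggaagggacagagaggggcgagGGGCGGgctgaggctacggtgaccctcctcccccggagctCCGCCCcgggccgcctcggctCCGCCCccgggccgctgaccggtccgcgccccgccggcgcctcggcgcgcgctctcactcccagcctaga
Vegfa, chr17:46032328-46032627, minus strand: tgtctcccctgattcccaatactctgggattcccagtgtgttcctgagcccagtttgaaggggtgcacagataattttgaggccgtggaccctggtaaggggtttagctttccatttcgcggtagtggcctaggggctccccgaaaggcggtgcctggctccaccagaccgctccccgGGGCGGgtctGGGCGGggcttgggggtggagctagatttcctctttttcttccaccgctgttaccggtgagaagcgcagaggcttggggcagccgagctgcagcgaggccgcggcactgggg

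The Kdr window held GC boxes at -166 and -45 from the start, the Flt1 window at -158, -142 and -19, the Flt4 window at -81, -41 and -20, and the Vegfa window at -72 and -62. A GC box stood in 10 of the 12 windows of the 10 genes, the exceptions being Vegfd and 1 of 2 Pgf windows, and in 35.7% of 32851 mouse promoter windows of the same length. The letters ACGTG or CACGT, 1 form of the core of the hypoxia response element, were found in 1 of the 12 windows, that of a second, downstream Vegfa start, against 19.6% of all windows, and the other form, GCGTG, was not searched. A match of letters is a description and not a binding site.

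Cells were clustered and clusters named from marker genes, and "-like" marks a name given in this way. The classes outside blood were chondrocyte-like, BMSC-like (bone marrow stromal), osteoblast-like (OB-like), endothelial-like (EC-like), fibroblast-like and smooth muscle-like cells. The mixture of cells differed between the groups: chondrocyte-like cells were 22.6% and 13.5% of the cells outside blood in Control and 59.0% and 57.6% in Fracture, while BMSC-like cells went from 28.6% and 34.5% to 9.06% and 9.04%. A sum over all cells therefore cannot tell fewer cells of a type from less RNA per cell. The smallest barcodes held 1 to 3 UMIs in Control and 1929 to 2724 in Fracture before filtering. The part of this difference in the shares was not tested.

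Levels are given as UMI counts scaled to the total of the class (CPM, counts per 1000000), in the order Control 1, Control 2, Fracture 1, Fracture 2. Differences are log2 fold changes of Fracture against Control with their standard error (SE), from the quasi-likelihood test of edgeR on summed counts, and adjusted p-values are Benjamini-Hochberg values over all genes tested in that class. A gene is called at an adjusted p under 0.05. The scaling of edgeR sets differences relative to the middle of all genes, which moved them by 0.116 to 0.2 in chondrocyte-like, BMSC-like and EC-like cells by 0.259 in the dpMSC-like cells described further on and by 0.206 over all cells outside blood, against plain library totals. Background is given as the percentage of all genes tested that were called. Erythroid-like cells, which should lack most of these transcripts, were used as a background level. Whether that level came from free RNA, doublets or their own transcript was not tested.

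Over the cells outside blood, 9 of the 10 genes were called, where 39.6% of all genes were. Vegfa was the single gene that was higher. Its level was 71.1, 76.1, 113 and 114 CPM (log2 difference of Vegfa +0.83 ± 0.06, SE, adjusted p = 0.00477, edgeR). Vegfc, the lymphatic ligand, stood at 62.9, 83.2, 8.51 and 8.97 CPM, the furthest fall of the family (-2.85 ± 0.15, adjusted p = 0.0035, edgeR). The receptors were lower as well, from Nrp1 at -1.04 (adjusted p = 0.022, edgeR) to Flt4 at -1.43 (adjusted p = 0.0282, edgeR), and Vegfd, at 1.31, 2.15, 1.46 and 1.62 CPM, was not called. Without either Fracture preparation 0 of these 9 calls stayed, the adjusted p of Vegfc being 0.0548 and 0.0503.

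Part of these differences moved with the mixture of classes. With each class held at its Control share, the plain log2 difference of Vegfa went from 0.62 to 0.09 and that of Pgf from -1.0 to 0.04, whereas Vegfc kept -2.32 of -3.06 and Kdr -0.77 of -1.32. At a fixed mixture the Vegfa value joins opposite effects, +1.37 in chondrocyte-like and -0.97 in BMSC-like cells. The BMSC-like effect was not called without integration. The classes were the integrated ones, and the BMSC-like class changed its own make-up. The dpMSC-like cells, a diaphyseal stromal population, were 64.4%, 70.8%, 18.9% and 21.7% of it. The Vegfa and Vegfc values at a fixed mixture therefore still hold a change of cells within that class. The source of each transcript moved accordingly. Chondrocyte-like cells held 21.3% and 20.2% of all Vegfa UMIs in Control and 81.4% and 81.3% in Fracture, when their share of UMIs of all genes was 23.3% and 13% in Control and 63.3% and 62.3% in Fracture. For Vegfc the BMSC-like share was 69.0%, 74.7%, 26.1% and 28.2%, and the EC-like share 20.8%, 21.5%, 51.6% and 48.5%. Nrp1 UMIs in chondrocyte-like cells went from 5.73% and 2.58% to 39.5% and 38.2%. In each of these the groups did not overlap, and the exact two-sided permutation test gives p = 0.33, the smallest that 2 preparations against 2 can give.

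**Figure D1:**
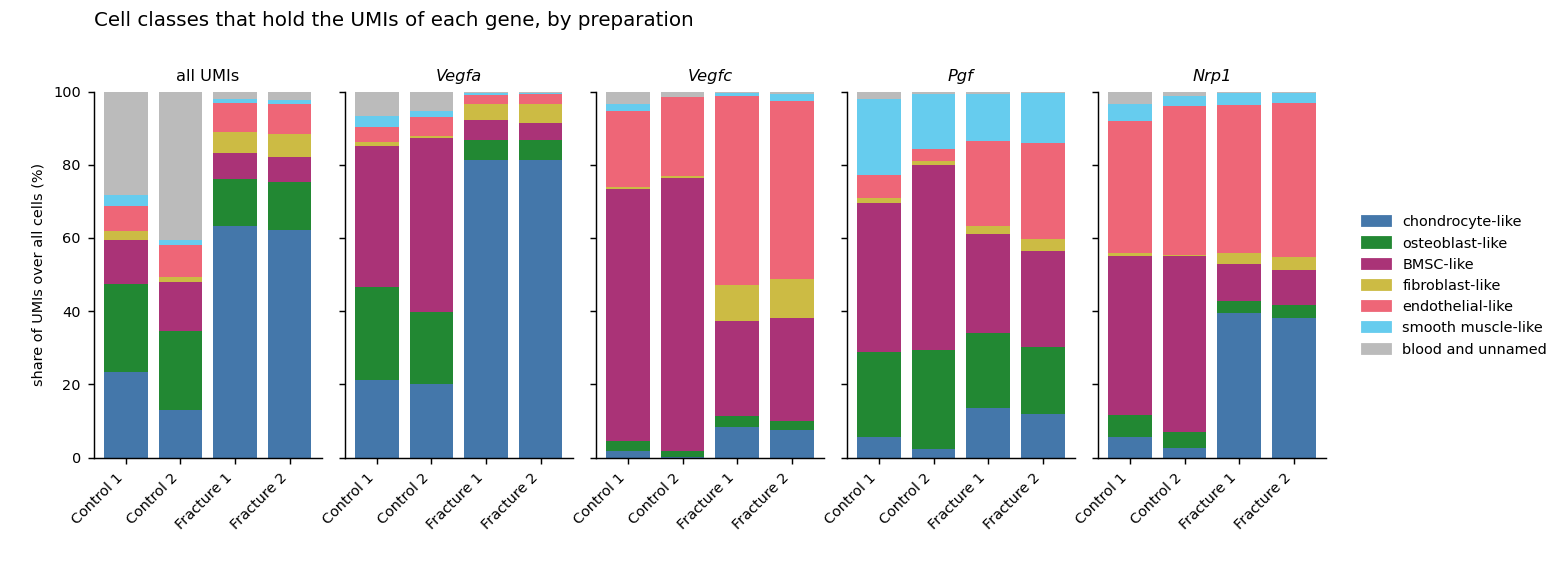
Percentage of the UMIs of all genes, Vegfa, Vegfc, Pgf and Nrp1 that came from each cell class, stacked in 1 bar for each of the 4 preparations, with blood and unnamed classes in grey. The chondrocyte-like share of Vegfa is 20.2% to 21.3% in Control and 81.3% to 81.4% in Fracture, and the BMSC-like share of Vegfc falls from 69.0% and 74.7% to 26.1% and 28.2%.

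Within classes, 21 gene and class pairs were called: 6 of 10 in chondrocyte-like cells (37.1% of all genes), 5 of 10 in BMSC-like cells (51.4%), 6 of 10 in EC-like cells (35.7%), 2 of 9 in fibroblast-like cells (16.2%), 2 of 9 in OB-like cells (16.4%) and 0 of 9 in smooth muscle-like cells (23%). In BMSC-like, fibroblast-like and OB-like cells the counts were near the share of all genes. Vegfa was called in 3 of its 6 classes, higher in 2 and lower in 1, and Nrp1 in 4, higher in 1 and lower in 3. Vegfc was lower in 3 classes and higher in none by this test. These calls rest on both Fracture preparations: without either of them, 4 of the 21 stayed called, namely Vegfa (-1.02 and -0.90 without Fracture 1 and Fracture 2), Vegfc (-2.73 and -2.99) and Nrp1 (-1.87 and -1.89) in BMSC-like cells and Nrp1 (+0.99 and +0.98) in chondrocyte-like cells.

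**Figure D2:**
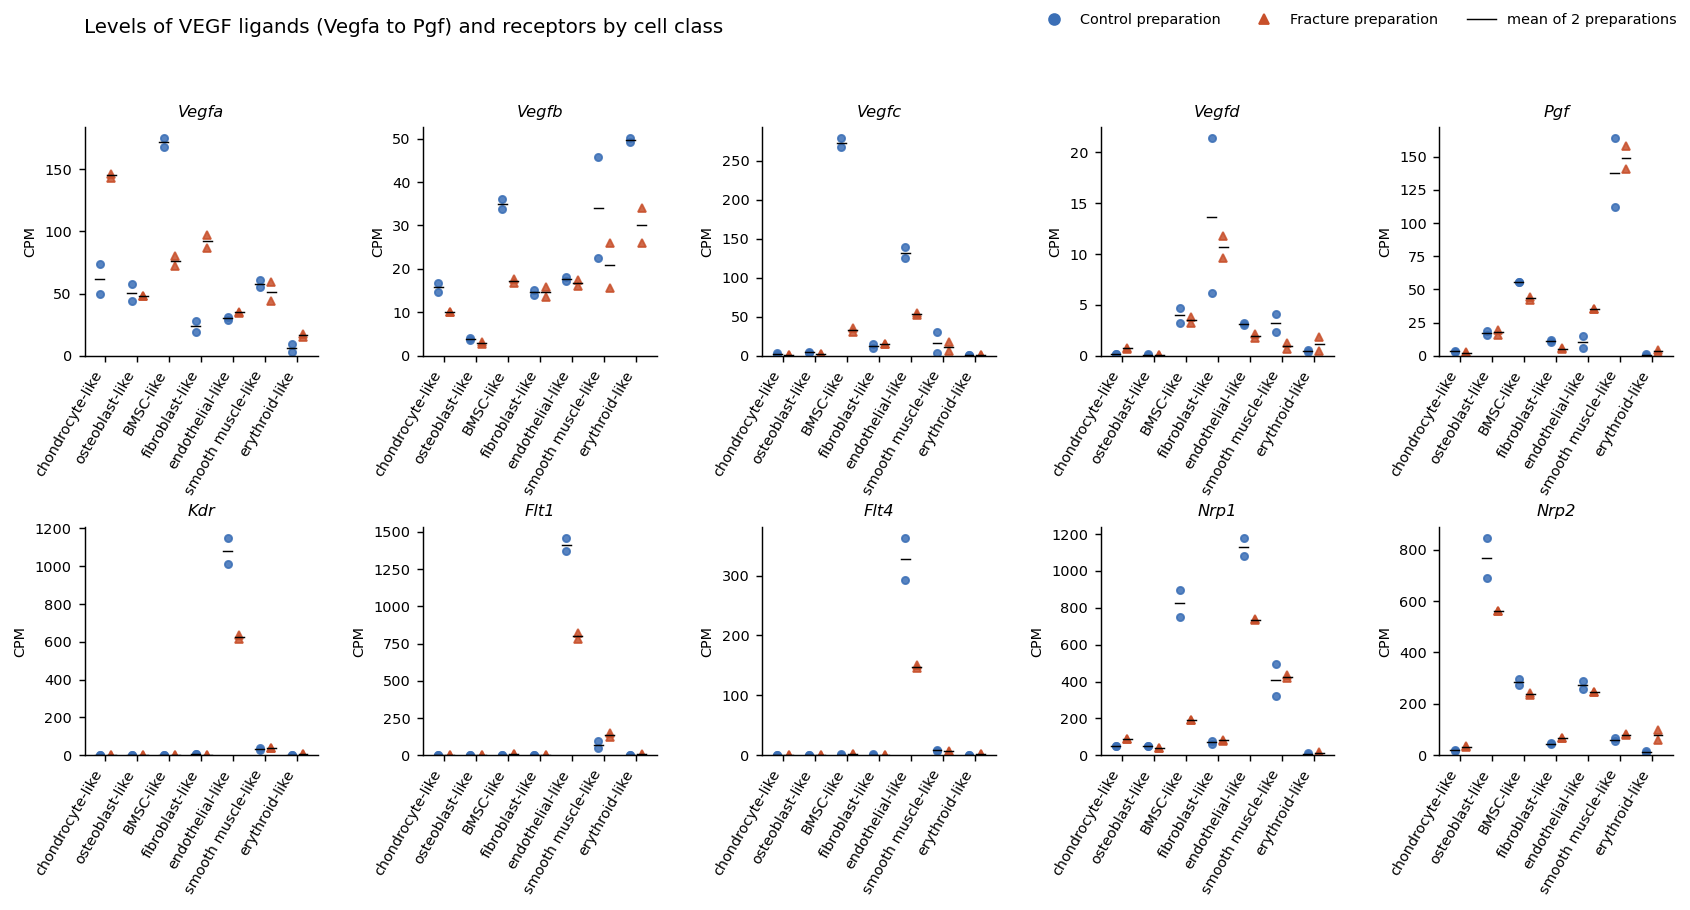
CPM of each of the 10 genes in 6 classes and in erythroid-like cells, with a circle for each Control preparation, a triangle for each Fracture preparation and a bar at the mean of the 2. Kdr, Flt1 and Flt4 stand high in EC-like cells (Kdr 613 to 1150 CPM), while Vegfa is highest in BMSC-like cells in Control (168 to 175 CPM) and in chondrocyte-like cells in Fracture (143 to 146 CPM).

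**Figure D3:**
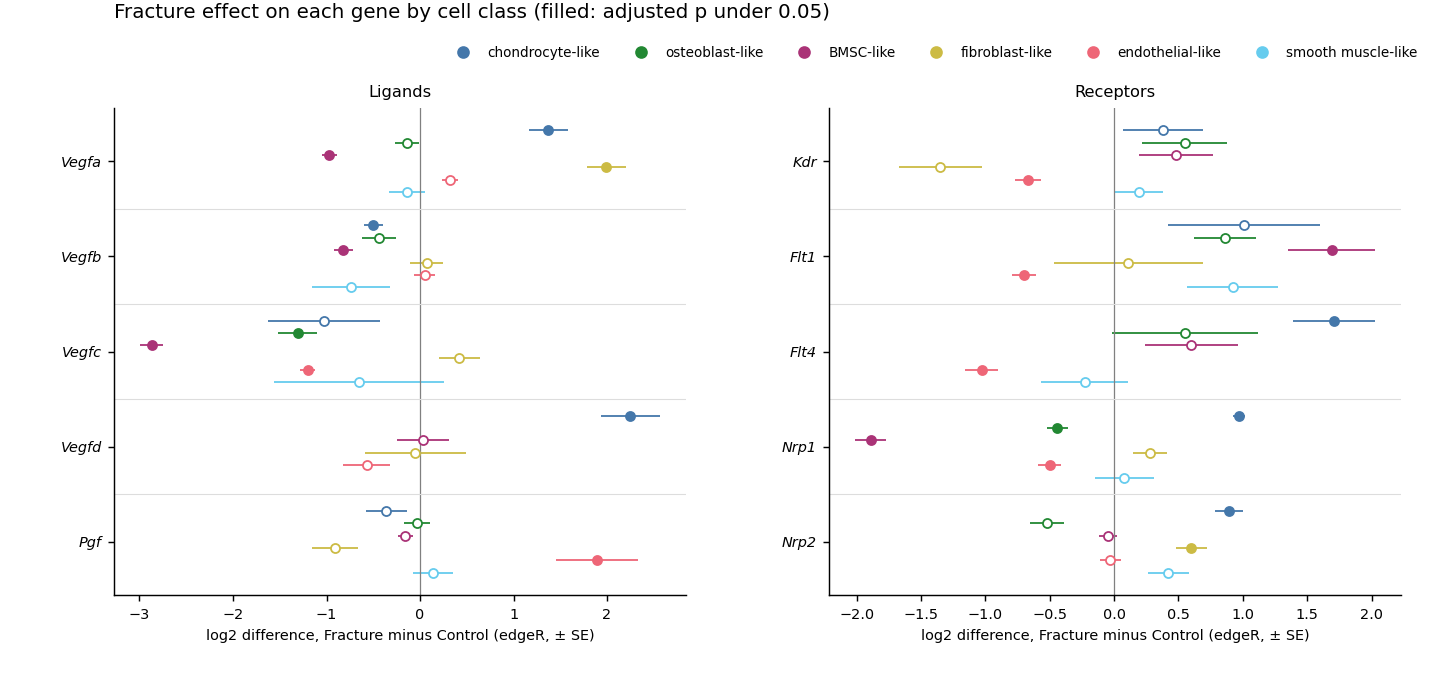
Log2 difference of Fracture against Control with its SE for each gene and class, ligands and receptors in separate panels, filled where the adjusted p was under 0.05. Vegfa lies at +1.37 in chondrocyte-like and -0.97 in BMSC-like cells, and Nrp1 at +0.97 and -1.89.

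Chondrocyte-like cells of Fracture bone carried more Vegfa and Nrp1 than those of Control bone. Nrp2 was called higher too, at levels below those of erythroid-like cells in Fracture. Vegfa stood at 49.9, 74.1, 143 and 146 CPM, with no overlap between the groups. The rise was +1.37 ± 0.21, with a 95% interval of 0.95 to 1.78 (adjusted p = 0.013, edgeR). Nrp1 stood at 51.0, 49.8, 89.1 and 88.7 CPM (+0.97 ± 0.05, adjusted p = 0.0016, edgeR). Nrp2 stood at 22.2, 18.4, 32.8 and 35.3 CPM (+0.89 ± 0.11, adjusted p = 0.00787, edgeR). Erythroid-like cells, however, had Nrp2 at 16.6, 8.6, 96.8 and 58.2 CPM, above the chondrocyte-like level in Fracture. Whether this was free RNA or their own transcript was not tested. The Nrp2 values of chondrocyte-like cells and of their subclasses therefore cannot be told from background. For Nrp1 and Vegfa the erythroid-like levels reached 19.1 and 17.1 CPM. Vegfb, a ligand of Flt1, went the other way, at 14.7, 16.8, 10.0 and 10.0 CPM (-0.50 ± 0.10, adjusted p = 0.0237, edgeR). Of all genes tested in this class 37.1% were called. The remaining calls, Vegfd (+2.25, adjusted p = 0.011, edgeR) and Flt4 (+1.71, adjusted p = 0.0201, edgeR), were of transcripts under 1.2 CPM in every preparation, below the Flt4 level of erythroid-like cells in Fracture, 2.01 and 2.87 CPM. The Vegfd values of Fracture lay within the 0.502 to 1.8 CPM of those cells. Flt4 in chondrocyte-like cells was not called when cells were clustered without integration (adjusted p = 0.104).

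Counted per cell, after each cell was thinned to 1000 UMIs, a Vegfa UMI was found in 4.97%, 6.53%, 12.4% and 12.2% of chondrocyte-like cells. In erythroid-like cells the shares were 1.14%, 0.508%, 1.91% and 1.41%. Without thinning the chondrocyte-like shares were 35.6%, 49.2%, 56.7% and 57.3%. Over all classes, blood included, 304 cells of Control but 0 of Fracture were too shallow for thinning.

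The rise of Vegfa was found in all 5 chondrocyte subclasses tested. Hypertrophic-like cells, the stage at which cartilage meets vessels, held the highest level, at 121, 159, 266 and 271 CPM (+0.96 ± 0.14, adjusted p = 0.0114, edgeR). Growth-plate-like cells stood at 32.9, 51.1, 114 and 106 CPM (+1.49 ± 0.24, adjusted p = 0.0369, edgeR). Cells led by Lcn2 stood at 42.8, 67.6, 90.1 and 98.8 CPM (+0.90 ± 0.22, adjusted p = 0.0432, edgeR). Cycling cells, at 33.8, 41.4, 64.5 and 77.9 CPM (+1.06, adjusted p = 0.0213, edgeR), and superficial-like cells, at 26.3, 35.3, 43.6 and 43.6 CPM (+0.67 ± 0.17, adjusted p = 0.0456, edgeR), had the lower levels. The superficial-like (adjusted p = 0.0711) and Lcn2-led (adjusted p = 0.0507) calls were lost when plain library totals replaced the scaling.

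The subclasses also changed in number. Hypertrophic-like cells were 15.9% and 21.0% of the chondrocyte-like class in Control and 32.8% and 31.6% in Fracture, Lcn2-led cells 10.0%, 7.26%, 31.1% and 31.6%, and growth-plate-like cells 42.4%, 44.4%, 12.7% and 12.8%. Higher Vegfa in the subclasses tested and a larger share of hypertrophic-like cells thus stood together in the class level. The part of each was not tested.

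The neuropilins were called in some subclasses, and differences between subclasses were not tested. In superficial-like cells, Nrp1 stood at 39.4, 53.4, 134 and 134 CPM (+1.69 ± 0.16, adjusted p = 0.00229, edgeR) and Nrp2 at 32.5, 27.1, 75.5 and 78.8 CPM (+1.49 ± 0.13, adjusted p = 0.00168, edgeR). Prg4, lubricin of the joint surface, stood in the same cells at 1410, 2100, 52.9 and 116 CPM. A marker among the 4 that name this cluster was thus mostly missing in Fracture. The part of that change in the neuropilin result was not tested. In hypertrophic-like cells Nrp1, at 88.5, 92.1, 110 and 108 CPM, was not called (+0.28, adjusted p = 0.0657, edgeR). Cycling cells had Nrp2 at 6.17, 4.87, 25.7 and 33.4 CPM (+2.47, adjusted p = 0.00614, edgeR), below the erythroid-like level of Fracture.

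Vegfd in hypertrophic-like cells was at 0 CPM in both Control preparations and at 1.0 and 0.984 CPM in Fracture, at least 2.58-fold higher than the floor of 3 counts over the group, 0.385 CPM. Erythroid-like cells of Fracture held 0.502 to 1.8 CPM, a range that covers both values. The genes called were 3 of 10 in hypertrophic-like, 2 of 7 in growth-plate-like, 3 of 7 in superficial-like, 3 of 8 in Lcn2-led and 4 of 6 in cycling cells, against 20.1%, 6.95%, 18.2%, 20.1% and 11.6% of all genes. Without either Fracture preparation, the calls of Nrp2 in cycling cells and of Nrp1 and Nrp2 in superficial-like and Lcn2-led cells stayed, and no Vegfa call of a chondrocyte subclass did.

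BMSC-like cells, the Cxcl12-rich stroma of marrow, carried less Vegfa, Vegfc and Nrp1 in Fracture. Vegfc stood at 268, 279, 29.8 and 35.4 CPM (-2.87 ± 0.12, adjusted p = 0.00117, edgeR). Nrp1 stood at 753, 897, 193 and 193 CPM (-1.89 ± 0.12, adjusted p = 0.0016, edgeR). Vegfa stood at 175, 168, 79.8 and 72.3 CPM (-0.97 ± 0.08, adjusted p = 0.0022, edgeR), opposite to chondrocyte-like cells. Vegfb, at 33.7, 36.2, 17.6 and 16.8 CPM, was also lower (-0.82 ± 0.10, adjusted p = 0.00426, edgeR). Pgf, at 55.4, 55.7, 44.5 and 42 CPM, and Nrp2, at 295, 274, 242 and 236 CPM, were not called. Flt1 was higher (+1.69 ± 0.34, adjusted p = 0.0155, edgeR), but at 2.58, 1.34, 5.65 and 5.57 CPM it lay within the erythroid-like range of 1.22 to 9.34 CPM. The background of calls in this class was high, at 51.4% of all genes.

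These values depend on how the class was made. Its own markers were lower in Fracture: Cxcl12 stood at 20200, 20900, 1320 and 1570 CPM, Lepr at 1060, 1350, 79.5 and 77.3 CPM and Kitl at 1250, 1450, 74.2 and 91.8 CPM. Cells that fell into a fibroblast-like subcluster made 1.11%, 0.29%, 18.5% and 16.5% of the class. When cells were clustered without integration, BMSC-like cells numbered 2076, 1477, 82 and 106. Their Cxcl12 stood at 29000, 25800, 15300 and 16300 CPM, Lepr at 1500, 1660, 514 and 470 CPM and Kitl at 1780, 1780, 697 and 791 CPM. These markers were thus lower in Fracture there too. In those cells Vegfc stood at 373, 335, 241 and 282 CPM (-0.37 ± 0.13, adjusted p = 0.188), Vegfa at 167, 170, 133 and 150 CPM (-0.18, adjusted p = 0.445) and Nrp1 at 996, 1070, 587 and 616 CPM (-0.71, adjusted p = 0.0568), all by edgeR and none called. The lower Vegfa, Vegfc and Nrp1 of the BMSC-like class was therefore measured together with the loss of cells rich in Cxcl12, and the 2 cannot be told apart in the integrated class. Under plain library totals Pgf (-0.36, adjusted p = 0.0201) and Nrp2 (-0.25, adjusted p = 0.0463) were called too. Of all genes called in this class, 3769 were higher and 3827 lower with the edgeR scaling, and 2820 and 5360 with plain totals.

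Split further, the stroma held diaphyseal (dpMSC-like) and metaphyseal (mpMSC-like) cells. In dpMSC-like cells Vegfc stood at 418, 370, 66.3 and 79.2 CPM (-2.18 ± 0.13, adjusted p = 0.000552, edgeR) and Nrp1 at 1170, 1180, 271 and 280 CPM (-1.84 ± 0.10, adjusted p = 0.000445, edgeR). In mpMSC-like cells the same genes changed less, Vegfc at 95.7, 96.8, 28.6 and 30.2 CPM (-1.57 ± 0.10, adjusted p = 0.00229, edgeR) and Nrp1 at 267, 303, 191 and 169 CPM (-0.52, adjusted p = 0.0235, edgeR). The difference between both effects was itself called, for Vegfc by -0.62 ± 0.15 (adjusted p = 0.00306, but 0.125 by DESeq2) and for Nrp1 by -1.33 ± 0.12 (adjusted p = 3.2e-09). Pgf parted the 2 populations most: it stood at 48.5, 61.7, 21.3 and 18.9 CPM in dpMSC-like cells (-1.20 ± 0.18, adjusted p = 0.00566, edgeR) and at 71, 52.5, 78.2 and 69.2 CPM in mpMSC-like cells (+0.39, adjusted p = 0.128, edgeR), a difference of -1.57 ± 0.22 (adjusted p = 4.8e-06). The genes called were 6 of 9 in dpMSC-like and 6 of 7 in mpMSC-like cells, against 42.4% and 25.5% of all genes, and 3 of 9 differences, against 22.7%. In Fracture, 131 of 198 and 154 of 243 dpMSC-like cells within the BMSC-like class were fibroblast-like without integration, the same limit as for the class. The dpMSC-like cluster tested held 222 and 271 Fracture cells in all. Among mpMSC-like cells within the BMSC-like class, 320 of 816 and 222 of 461 in Control were BMSC-like without integration. In Fracture these were 30 of 440 and 25 of 475. Another 489, 235, 363 and 398 were osteoblast-like, so this population too was drawn from other clusters in each group. The mpMSC-like cluster tested held 863, 493, 474 and 511 cells. Without either Fracture preparation, Vegfa, Vegfc and Nrp1 stayed called in dpMSC-like cells.

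Septoclasts are perivascular cells that resorb cartilage matrix at the growth plate. Septoclast-like cells, 290, 137, 273 and 270 in number, had 3 of 5 septoclast markers raised over the other stromal cells. Mmp9 and Mmp13 were among their leading genes, and 3 mpMSC-like markers were raised too. Vegfa stood there at 234, 168, 81.5 and 70.1 CPM (-1.33 ± 0.17, adjusted p = 0.0135, edgeR), and Vegfc at 29.5, 39.2, 12.9 and 12.5 CPM (-1.34, adjusted p = 0.0233, edgeR). Nrp2 was lower too, at 431, 475, 297 and 276 CPM (-0.59, adjusted p = 0.025, edgeR), though not with no filter on low counts (adjusted p = 0.0518). Pgf, at 71.3, 71.1, 83.4 and 81.9 CPM, and Nrp1, at 259, 274, 206 and 185 CPM, were not called. The genes called were 3 of 6, against 12.1% of all genes, and without either Fracture preparation 0 of the 3 stayed called.

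**Figure D4:**
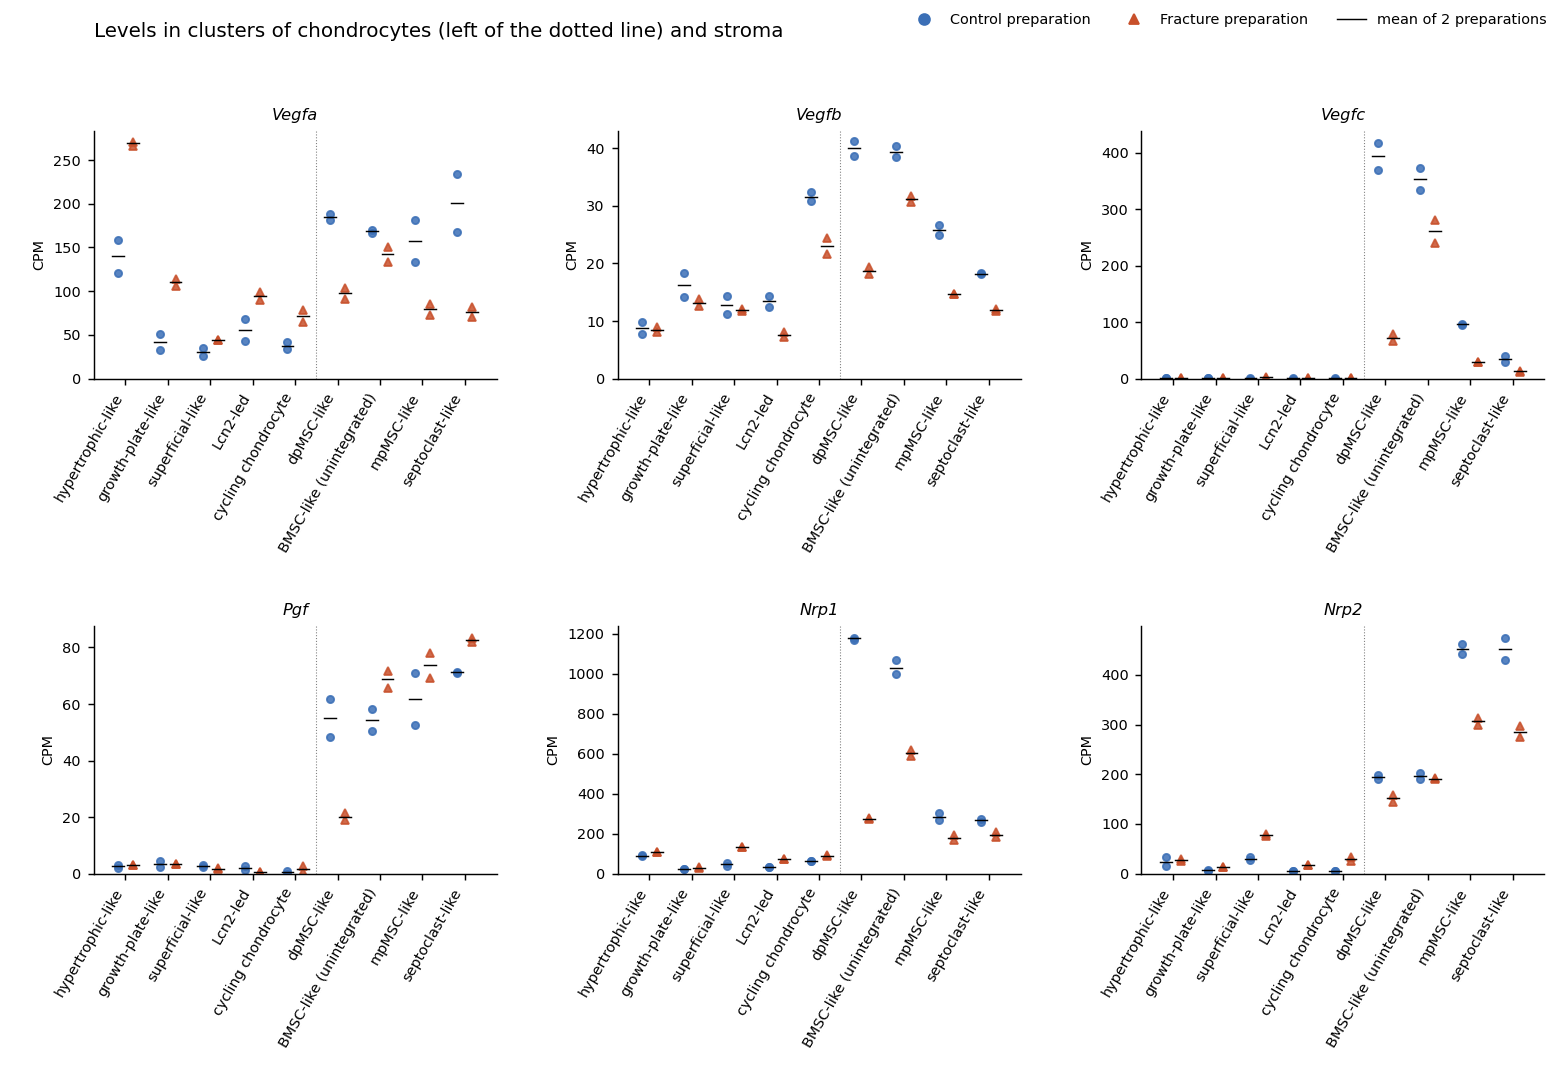
CPM of Vegfa, Vegfb, Vegfc, Pgf, Nrp1 and Nrp2 per preparation in the chondrocyte subclasses and in the dpMSC-like, mpMSC-like and septoclast-like cells, with BMSC-like cells clustered without integration beside them. Vegfa is highest in hypertrophic-like cells of Fracture (266 and 271 CPM), and Vegfc is 418 and 370 CPM in Control dpMSC-like cells but 241 to 373 CPM in all preparations of unintegrated BMSC-like cells.

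EC-like cells held nearly all Kdr, Flt1 and Flt4 UMIs, between 90.2% and 98.1% in every preparation, and all 3 receptors were lower in them in Fracture. Kdr stood at 1010, 1150, 613 and 635 CPM (-0.67 ± 0.10, adjusted p = 0.0135, edgeR). Flt1 stood at 1460, 1370, 784 and 822 CPM (-0.70 ± 0.09, adjusted p = 0.00963, edgeR). Flt4 stood at 292, 363, 145 and 151 CPM (-1.03 ± 0.13, adjusted p = 0.00966, edgeR). The co-receptors parted: Nrp1, at 1080, 1180, 737 and 734 CPM, was lower (-0.50 ± 0.09, adjusted p = 0.0171, edgeR), and Nrp2, at 259, 289, 247 and 248 CPM, was not called. Vegfc was lower, at 140, 125, 55 and 51.7 CPM (-1.20 ± 0.08, adjusted p = 0.00585, edgeR), and Pgf was higher, at 14.9, 5.77, 35.6 and 35.5 CPM (+1.89 ± 0.44, adjusted p = 0.0337, edgeR). Arterial-like cells, which had the highest Vegfc level, were 27.1%, 23.9%, 10.5% and 11.4% of EC-like cells, and sinusoidal-like cells, with the highest Flt4 among the subclasses tested, 19.2%, 28.4%, 13.8% and 15.2%. Timp4-led cells, with the highest Pgf, were 8.46%, 4.79%, 10.5% and 10.7%, and their part in the class Pgf value was not tested. Cycling cells were 1.16%, 2.95%, 10.5% and 9.51%. The part of cycling cells in the receptor values here and in the next paragraph was not tested. Within the 5 subclasses tested, the adjusted p of Vegfc (edgeR) was 0.0821 in Tagln-led (-1.04), 0.133 in Timp4-led (-0.83), 0.157 in Ramp3-led (-0.56), 0.0839 in arterial-like (-0.45) and 0.938 in sinusoidal-like cells (0.05). The values were lower in Fracture without overlap in 4 of these 5, and the part of the smaller arterial-like share in the class value was not tested. The background was 35.7% of all genes. After thinning to 1000 UMIs, Kdr was found in 52.6%, 60.8%, 44.6% and 45.5% of EC-like cells, and without thinning in 79.0%, 86.5%, 93.4% and 94.5%, in the opposite order.

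Cells with cartilage transcripts stood among these EC-like cells. Chondrocyte markers summed to 2400, 1350, 12700 and 13100 CPM in them, and EC markers to 7420, 7020, 5970 and 5830 CPM. Clusters led by Acan made 3.25%, 1.52%, 16.3% and 14.1% of the EC-like cells and clusters led by Bglap 0.797%, 0.638%, 3.85% and 3.36%. Without these clusters the receptors were still lower, Kdr at 1060, 1200, 753 and 774 CPM (-0.48, adjusted p = 0.0262, edgeR), Flt1 at 1540, 1410, 959 and 988 CPM (-0.52, adjusted p = 0.018, edgeR) and Flt4 at 310, 376, 178 and 183 CPM (-0.85, adjusted p = 0.0133, edgeR). Vegfa, not called over all EC-like cells at 31.4, 29.0, 35.3 and 34.3 CPM (adjusted p = 0.058, edgeR), then stood at 27, 25.5, 10.6 and 11.7 CPM and was lower (-1.15 ± 0.12, adjusted p = 0.00925, edgeR), with Fracture values at or under those of erythroid-like cells.

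The receptors did not move alike in all vessels. Sinusoidal-like cells, named from 5 markers with Stab2 among them, numbered 313, 356, 165 and 212, and arterial-like cells, named from 8 with Gja4 and Sema3g among them, 443, 300, 126 and 160. In sinusoidal-like cells Flt4 stood at 749, 734, 305 and 340 CPM (-1.14 ± 0.10, adjusted p = 0.00269, edgeR) and Kdr at 1430, 1470, 1010 and 1010 CPM (-0.45 ± 0.09, adjusted p = 0.0231, edgeR). The Kdr call was lost at subcluster resolution 0.4 (adjusted p = 0.0535). Flt1, at 1060, 951, 993 and 1010 CPM, did not pass the test (+0.06). In arterial-like cells Kdr was higher, at 602, 615, 785 and 794 CPM (+0.46 ± 0.09, adjusted p = 0.0247, edgeR), and Flt1 lower, at 1460, 1500, 1060 and 1030 CPM (-0.42 ± 0.08, adjusted p = 0.0308, edgeR). Flt4, at 77.4, 79.4, 68.9 and 77.4 CPM, was not called.

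The difference between the sinusoidal-like and arterial-like effects was called for all 3 receptors: -0.91 ± 0.09 for Kdr (adjusted p = 5.54e-09), +0.48 ± 0.09 for Flt1 (adjusted p = 0.000424) and -1.12 ± 0.15 for Flt4 (adjusted p = 1.27e-06), by edgeR with the preparation as a block. DESeq2 gave the Flt1 difference an adjusted p of 0.404. The 3 calls were 3 of 10 genes, where 9.08% of all genes were called. Some markers that name the clusters differed between the groups as well, Stab2 in sinusoidal-like cells at 1850, 1850, 658 and 590 CPM, and Gja4 at 833, 846, 1440 and 1540 CPM and Sema3g at 806, 833, 338 and 375 CPM in arterial-like cells. Erythroid markers summed to 362, 176, 5920 and 6700 CPM in sinusoidal-like and to 23.5, 66.9, 1280 and 874 CPM in arterial-like cells. The part of these markers, and of a shift in which cells fall into each cluster, was not tested. Each subclass had 3 genes called, 3 of 8 in sinusoidal-like and 3 of 10 in arterial-like cells, against 15.8% and 13.7% of all genes, and without either Fracture preparation 0 of these 6 stayed called. The differences between both subclasses did stay when any 1 preparation was left out, at -0.92 to -0.90 for Kdr, 0.38 to 0.59 for Flt1 and -1.16 to -1.08 for Flt4.

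Among the ligands, sinusoidal-like cells had less Vegfa, at 52.8, 48.5, 17 and 18.8 CPM (-1.43 ± 0.18, adjusted p = 0.00808, edgeR), the Fracture values being close to the 17.1 and 15.4 CPM of erythroid-like cells. Arterial-like cells had the highest endothelial level of Vegfc, at 352, 382, 284 and 223 CPM (-0.45, adjusted p = 0.0839, edgeR, not called), beside 24.3, 14.8, 16.2 and 21 CPM in sinusoidal-like cells. Pgf was higher in arterial-like cells, at 9.73, 4.81, 30.4 and 18.1 CPM (+1.76 ± 0.40, adjusted p = 0.0403, edgeR), a call lost at subcluster resolution 0.4 (adjusted p = 0.0538). A cluster led by Timp4 had the highest endothelial level of Pgf, at 110, 95.9, 240 and 219 CPM (+1.18 ± 0.16, adjusted p = 0.0064, edgeR), and Pgf was among the genes that lead it. In that cluster Nrp1 stood at 1590, 1580, 700 and 696 CPM (-1.14 ± 0.12, adjusted p = 0.00214, edgeR) and Flt1 at 1720, 1830, 637 and 755 CPM (-1.30 ± 0.14, adjusted p = 0.00239, edgeR).

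A cluster led by Ramp3 had Kdr at 1520, 1580, 857 and 885 CPM (-0.75 ± 0.08, adjusted p = 0.00704, edgeR), Flt1 at 2010, 1820, 1200 and 1210 CPM (-0.59, adjusted p = 0.0119, edgeR) and Flt4 at 385, 353, 231 and 239 CPM (-0.57, adjusted p = 0.0126, edgeR). All 3 receptors were lower there, and the difference from arterial-like cells was not tested. The genes called were 5 of 9 in the Ramp3-led and 4 of 7 in the Timp4-led cluster, against 20.2% and 12.5% of all genes. Without either Fracture preparation, Pgf, Flt1 and Nrp1 stayed called in the Timp4-led cluster and 0 genes in the Ramp3-led cluster. Lymphatic-like cells, 31 in all, were too few for a test. They held Flt4 at 483, 353, 603 and 840 CPM, from only 2, 4, 15 and 10 cells.

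**Figure D5:**
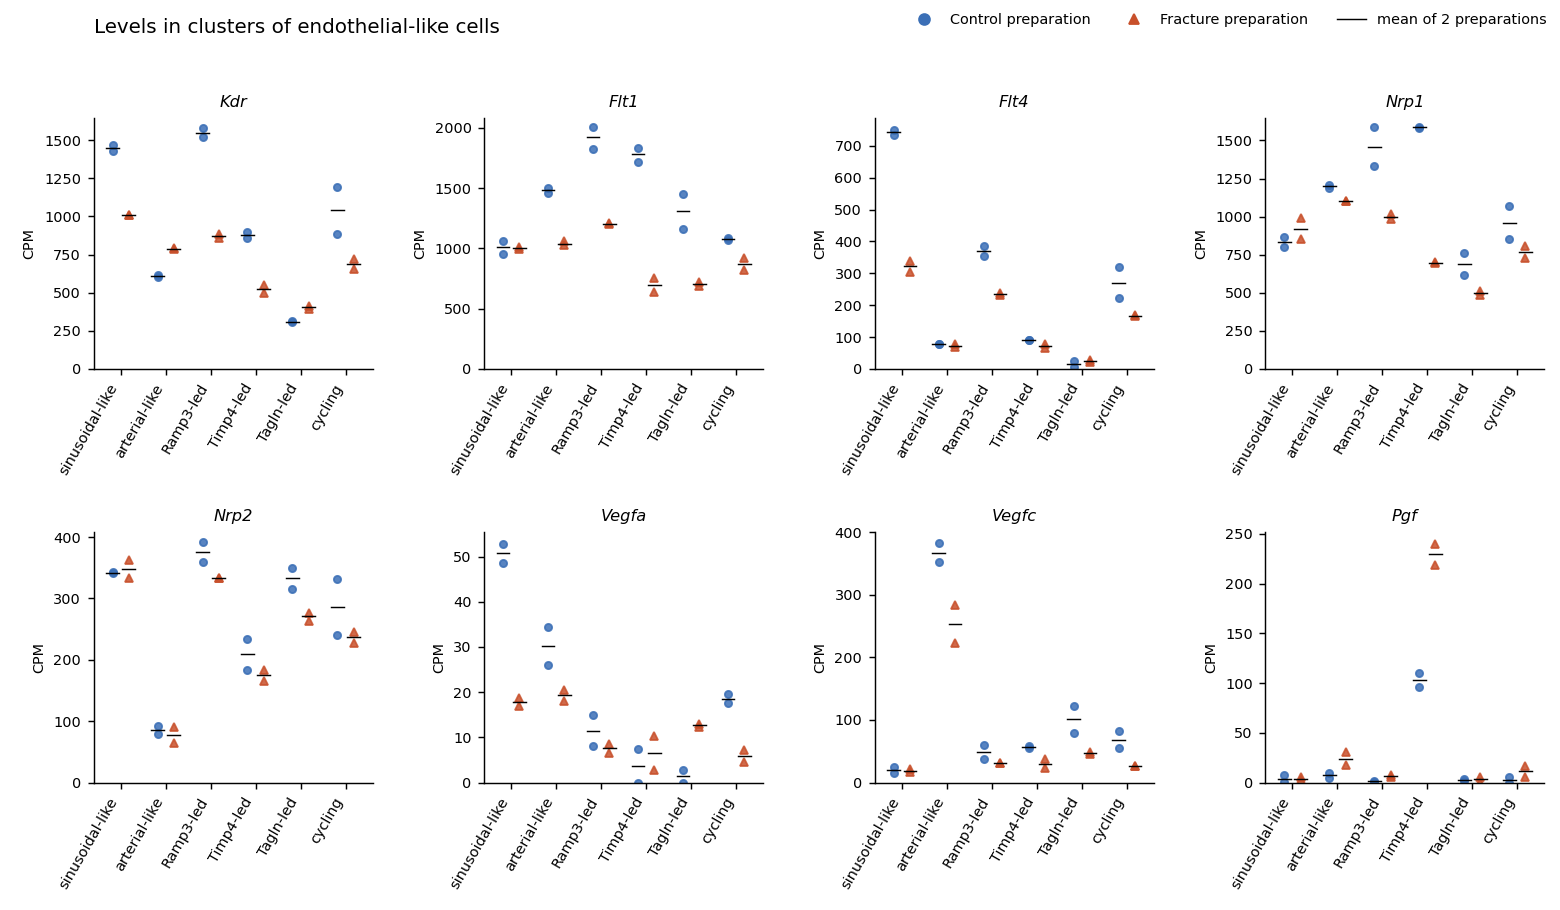
CPM of 8 genes per preparation in the sinusoidal-like, arterial-like, Ramp3-led, Timp4-led, Tagln-led and cycling endothelial clusters, with circles for Control and triangles for Fracture. Kdr falls from 1430 and 1470 to 1010 and 1010 CPM in sinusoidal-like cells and is higher in arterial-like cells (602 and 615 against 785 and 794 CPM).

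In the other classes, smooth muscle-like cells had the highest level of Pgf in both groups, at 112, 164, 141 and 158 CPM (+0.14 ± 0.21, not called), and none of the 9 genes tested there was called, where 23% of all genes were. Fibroblast-like cells had Vegfa at 28.1, 19.2, 86.5 and 97.4 CPM (+1.99 ± 0.21, adjusted p = 0.0112, edgeR) and Nrp2 at 48.1, 43.5, 67.1 and 65.4 CPM (+0.60 ± 0.12, adjusted p = 0.0366, edgeR), with a background of 16.2%. The Nrp2 values of Fracture lay inside the erythroid-like range of 58.2 to 96.8 CPM. Chondrocyte markers summed to 3800, 3370, 12500 and 11500 CPM in those fibroblast-like cells, and to 541, 172, 4630 and 4010 CPM in erythroid-like cells, and fibroblast markers in the fibroblast-like cells themselves to 20900, 23100, 7650 and 8100 CPM. The part of this cartilage RNA and of the lower fibroblast markers in the Vegfa result was not tested. OB-like cells, which hold the most Nrp2 UMIs (71.2%, 72.6%, 52.6% and 52.6%), had less Vegfc, at 5.17, 3.78, 2.02 and 1.76 CPM (-1.31 ± 0.21, adjusted p = 0.0217, edgeR), and less Nrp1, at 50.8, 50.6, 38.0 and 40.0 CPM (-0.44 ± 0.08, adjusted p = 0.0313, edgeR). BMSC-like markers summed to 194, 122, 46.8 and 40.2 CPM in OB-like cells and osteoblast markers to 106000, 123000, 44600 and 58100 CPM, and their part in the lower Vegfc was not tested. Nrp1 in OB-like cells was not called without integration (-0.16, adjusted p = 0.145). OB-like Nrp2, at 691, 846, 562 and 561 CPM, narrowly missed the threshold (-0.52 ± 0.13, adjusted p = 0.0583, edgeR), and 16.4% of all genes passed.

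The remaining ligands were spread differently. Vegfd, a ligand of Flt4, had its highest level in fibroblast-like cells, at 6.13, 21.4, 9.63 and 11.8 CPM, with overlap between the groups. These cells held 15.2%, 21.8%, 37.4% and 44.9% of all Vegfd UMIs. Vegfb was found in blood as well, at 49.1, 50.2, 34.1 and 25.9 CPM in erythroid-like cells, so that erythroid-like cells give no background for this gene. Outside the endothelium Kdr was low but not absent: smooth muscle-like cells had 36, 30.3, 38.2 and 36.7 CPM and megakaryocyte-like cells 58.2, 78.4, 35.2 and 34.0 CPM. As a percentage of the summed EC markers of the same cells, Kdr was 10.3% to 16.4% in EC-like cells and 6.54% to 27.5% in the other stromal classes, ranges that overlap, but 3.79% to 7.26% in megakaryocyte-like cells, below the EC-like range.

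Whether the fracture effect differed between chondrocyte-like cells and each other class was tested with an interaction term, blocked by preparation. Against BMSC-like cells, 6 of 10 differences were called, where 46.1% of all genes were: Vegfa by 2.39 ± 0.19 (adjusted p = 8.06e-05) and Nrp1 by 2.86 ± 0.11 (adjusted p = 7.96e-06) were among them. These rest on the integrated BMSC-like class, whose effects without integration were -0.18 for Vegfa and -0.71 for Nrp1, neither called, and the difference was not run on that clustering. Against EC-like cells 9 of 10 were called, where 37.4% of all genes were, with Vegfa apart by 1.14 ± 0.18 (adjusted p = 0.00354). Without the clusters whose leading genes mark another class, an alternative chosen after seeing the data, this difference was 2.63 (adjusted p = 5.86e-05), and Vegfa in EC-like cells stood at 27.0, 25.5, 10.6 and 11.7 CPM (-1.15, adjusted p = 0.00925, edgeR) in place of 31.4, 29.0, 35.3 and 34.3 CPM. Against OB-like cells 3 of 10 were called (28.2% of all genes), against fibroblast-like cells 2 of 10 (17.9%) and against smooth muscle-like cells 4 of 10 (21.6%). The Vegfa difference from fibroblast-like cells was not called (-0.51, adjusted p = 0.237), so the size of the rise was not separated between these classes by this test. Without either Fracture preparation, fewer than 30 differences were called over the pairs of classes given here and above. Those of Vegfa and Nrp1 from BMSC-like and EC-like cells stayed called.

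Other genes of the pathway were read from 4 lists of named genes. In EC-like cells the VEGF receptor signalling list had 2 higher and 7 lower of 14 tested, where 35.7% of all genes were called, with a median of -0.34 against 0.01 over all genes. Ptprb, the phosphatase VE-PTP that acts on vascular receptors, stood at 1620, 1560, 622 and 647 CPM (-1.21 ± 0.08, adjusted p = 0.00578, edgeR). The list of endothelial genes known to respond to VEGF had 4 higher and 2 lower of 11, with a median of 0.33. Apln, a peptide of sprouting vessels, stood at 38.5, 36.1, 151 and 145 CPM (+2.11 ± 0.07, adjusted p = 0.00402, edgeR), and Dll4, a Notch ligand of tip cells, was lower (-0.70, adjusted p = 0.00945, edgeR). Neuropilin partners had 3 higher and 2 lower of 10 (median -0.0). Oxygen sensing had 1 higher and 3 lower of 8 (median -0.05), among them Epas1, which encodes HIF-2 alpha, at 1120, 1030, 397 and 437 CPM (-1.25, adjusted p = 0.00598, edgeR).

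Sinusoidal-like and arterial-like cells shared the higher Apln, at 10.3, 6.99, 180 and 184 CPM (+4.48, adjusted p = 0.000564) and at 1.22, 0.481, 24.6 and 17.5 CPM (+4.55, adjusted p = 0.00629, edgeR). Hif1a, an oxygen-sensing factor, was lower in sinusoidal-like (-0.54, adjusted p = 0.0246) and higher in arterial-like cells (+0.77, adjusted p = 0.0127, edgeR); the difference itself was not tested here. Sema3a, a neuropilin ligand, was lower in sinusoidal-like cells, at 210, 212, 32.4 and 30.1 CPM (-2.69, adjusted p = 0.000593, edgeR). Esm1, a tip cell gene, and Dusp5 were higher in arterial-like cells by +1.91 (adjusted p = 0.0439) and +2.87 (adjusted p = 0.00644, edgeR). Of the 4 lists, in the order above, 1, 1, 0 and 0 genes were higher and 1, 1, 1 and 3 lower in sinusoidal-like cells, of 12, 11, 6 and 7 tested (15.8% of all genes were called). In arterial-like cells 0, 3, 1 and 1 were higher and 3, 0, 1 and 1 lower, of 13, 9, 5 and 7 (13.7%). In chondrocyte-like cells 6, 3, 5 and 5 were higher and 3, 1, 2 and 0 lower, of 15, 11, 11 and 8 (37.1%), and in BMSC-like cells 4, 5, 5 and 2 higher and 3, 3, 2 and 3 lower, of 13, 8, 10 and 8 (51.4%). The receptor signalling counts, 2 of 12 in sinusoidal-like and 7 of 13 in BMSC-like cells, were near the share of all genes.

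As a description, the genes whose levels ran most alike with each receptor over 40 sums (10 classes in 4 preparations) were sought among 11554 genes by Pearson's r. Kdr ran closest to Scarf1 (0.975), Tie1 (0.964) and Podxl (0.951), Flt1 to Ptprb (0.984), Emcn (0.978) and Podxl (0.971), and Flt4 to Bcl6b (0.976), Fam167b (0.962) and Ccm2l (0.945). The ligands had looser neighbours, Vegfa with Appl2 (0.874) and Vegfc with Irgm2 (0.935) and Thsd7a (0.911), and Nrp1 ran with Hoxa5 (0.907) and Nrp2 with Nhsl1 (0.908). The sums share libraries and depth, and no p is attached.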

How the data were processed

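The authors deposited UMI counts of each gene in each barcode, not normalised. The submitters' processing notes name bcl2fastq 2.19.1.403, UMI-tools 1.0.0, STAR 2.7.3a, Subread and featureCounts 1.6.4, with mm10. The smallest barcodes hold 1 to 3 UMIs in the Control tables and 1929 to 2724 in the Fracture tables, so barcodes were selected differently before deposit, in a way not given in the sources used here. The members and gene lists were chosen with earlier results of these data known.

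Of 48903 barcodes, 45328 with 500 to 6000 genes and at most 25% mitochondrial UMIs were kept, and 26357 of 28956 genes found in at least 3 cells. Cells were integrated and clustered with Seurat 5.3.0 (12 components, resolution 0.1; subclusters at 0.2, stroma at 0.08, septoclast-like cells at 0.5) and named from at least 3 markers. Doublets were called with scrublet in scanpy 1.11.5 (718 cells, 1.58%) and kept. It called under 0.5% in 3 libraries and so did not work there. Counts were summed per class and preparation (at least 20 cells) and tested with the edgeR 4.0.16 quasi-likelihood test, with TMM scaling, filterByExpr and p-values adjusted by Benjamini-Hochberg over all genes. The code was tested on simulated data.

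All 10 members were named in every class. Of the VEGF receptor signalling, VEGF-responsive, neuropilin partner and oxygen sensing lists, called genes of endothelial-like, sinusoidal-like and arterial-like cells could be named (at most 4 rises and 4 falls per list), and for each member the 3 genes of highest Pearson r among genes reaching 20 CPM. Cells were thinned to 1000 UMIs for shares of cells with a UMI. Gene positions came from GENCODE M21 (GRCm38), and all 10 members matched the RefSeq promoter table. Alternatives were DESeq2 1.42.0, other scaling, filters, clustering, doublet removal, a replicate block and leaving out each preparation. R 4.3.3 and Python 3.11.15 were used.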

Additional observations from a re-analysis of the deposited data

Results flagged for a closer look

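The fracture effect differed between classes for 30 gene and class pairs, by the interaction test of edgeR with Benjamini-Hochberg adjustment. All are log2 differences, the effect in the first-named class minus that in the second. In the same fits 9.08% to 46.1% of all genes were called. The counts against OB-like and fibroblast-like cells, 3 of 10 and 2 of 10, were near the 28.2% and 17.9% of all genes. DESeq2 made 20 calls in place of 30.

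Chondrocyte-like minus BMSC-like cells gave 2.39 for Vegfa, 0.34 for Vegfb, 1.72 for Vegfc, 2.11 for Vegfd, 2.86 for Nrp1 and 0.95 for Nrp2. The BMSC-like side rests on integrated clusters: without integration its own effects were not called for Vegfa (-0.18), Vegfb (-0.27), Vegfc (-0.37) and Nrp1 (-0.71). DESeq2 did not call the Vegfb (adjusted p = 0.306) and Vegfc (adjusted p = 0.0759) differences. Chondrocyte-like Vegfc stood at only 0.732 to 3.6 CPM, with overlap between the groups. Chondrocyte-like minus OB-like cells gave 1.59 for Vegfa, 1.41 for Nrp1 and 1.37 for Nrp2. Chondrocyte-like minus fibroblast-like cells gave 1.69 for Kdr and 0.63 for Nrp1. Kdr stood at 1.06 to 2.17 CPM in chondrocyte-like and 2.28 to 7.42 CPM in fibroblast-like cells. Erythroid-like cells of Fracture held 5.39 and 6.02 CPM, so both sides lie near the erythroid-like level. DESeq2 gave the Kdr difference an adjusted p of 0.0813. Nrp1 was thus further up in chondrocyte-like cells than in each class it was set against.

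Chondrocyte-like minus EC-like cells gave 1.14 for Vegfa, -0.51 for Vegfb, 2.84 for Vegfd, -2.12 for Pgf, 1.01 for Kdr, 1.69 for Flt1, 2.69 for Flt4, 1.51 for Nrp1 and 0.94 for Nrp2. Without the clusters whose leading genes mark another class, the Vegfa value was 2.63, and the Vegfc value against BMSC-like cells 2.75. DESeq2 did not call the Flt1 (adjusted p = 0.127) and Vegfb (adjusted p = 0.115) differences from EC-like cells. Kdr, Flt1, Flt4 and Vegfd are at or near the erythroid-like level in chondrocyte-like cells, at 0.163 to 2.92 CPM in each preparation. These 4 differences therefore rest on few UMIs there. Chondrocyte-like minus smooth muscle-like cells gave 1.55 for Vegfa, 4.07 for Vegfd, 1.93 for Flt4 and 0.79 for Nrp1. DESeq2 did not call the Flt4 and Nrp1 values here, the latter at an adjusted p of 0.0633. The Flt4 value turned to -0.28 without the 6% of cells with the highest doublet scores. Flt4 and Vegfd are near the erythroid-like level in chondrocyte-like cells here too. Every Nrp2 difference above rests on chondrocyte-like levels under those of erythroid-like cells in Fracture.

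Sinusoidal-like minus arterial-like cells gave -0.91 for Kdr, 0.48 for Flt1 and -1.12 for Flt4. dpMSC-like minus mpMSC-like cells gave -0.62 for Vegfc, -1.57 for Pgf and -1.33 for Nrp1.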

How the results depend on the processing

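Of 105 called values, 69 stayed called in the same direction in every alternative run for them apart from leaving out a preparation. With leaving out included, 29 stayed. Not every alternative was run for every value. Clustering without integration was run only for the main classes, not for subclasses or differences. The replicate block and plain library totals were not run for differences. Leaving out 1 preparation gave 4 to 29 calls in the main classes (21 in the report), 0 to 8 in endothelial subclasses (6), 6 to 27 in chondrocyte and stromal subclasses (24), 19 to 34 differences between classes (30), 5 to 19 in the Ramp3-led, Timp4-led, Lcn2-led and septoclast-like cells (15) and 0 to 9 outside blood (9). The low ends came without a Fracture preparation, where the lone sample is assumed to vary like the other group, and the cause was not tested. DESeq2 gave 22, 6, 21, 20, 14 and 9 calls for the same counts. Clustering without integration gave 17 in the main classes, where 14 of the 21 stayed called and 7 did not, and plain library totals gave 24.

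The preparation numbers only name samples: the correlation of same-numbered deviations was 0.132 outside blood, 0.178 in BMSC-like, 0.114 in OB-like, 0.089 in EC-like and 0.061 in chondrocyte-like cells, over only 2 pairs. With the number as a replicate block, 18, 4, 16, 12 and 9 calls were made in the main classes, endothelial subclasses, chondrocyte and stromal subclasses, the 4 further clusters and outside blood. Arterial-like Kdr (adjusted p = 0.057) and Flt1 (adjusted p = 0.0653) and fibroblast-like Vegfa (2.03, adjusted p = 0.051) were among those lost.

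The Fracture minus Control share of Vegfa UMIs in chondrocyte-like cells was 60.6 percentage points over all cells, 59.6 outside blood and 60.1 to 61.2 without 1 preparation. For Vegfc in BMSC-like cells it was -44.7, and -47.6 to -41.9 without 1 preparation. The share of cells with a UMI depended on depth: for Vegfa in chondrocyte-like cells it was 6.55 points at 1000 UMIs, 11.1 at 2000 and 14.6 unthinned, and for Vegfc in BMSC-like cells -20.2, -33.9 and -44.2. For Kdr in EC-like cells it was -11.6 at 1000 UMIs and, unthinned, reversed to 11.1, where Fracture cells held more UMIs. The Flt4 difference of chondrocyte-like minus smooth muscle-like cells turned to -0.28 without the 6% of cells with the highest doublet scores, an alternative chosen after seeing the data, as were plain library totals. At subcluster resolution 0.4, sinusoidal-like Kdr (-0.35, adjusted p = 0.0535) and arterial-like Pgf (1.64, adjusted p = 0.0538) were not called.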
